A study of Mus musculus with 12 samples.

Results

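Clustered histone genes are the genes whose array name begins with Hist1h, Hist2h, Hist3h or Hist4h. This naming rule took 55 of the 55681 probes other than control spots, which stand for 49 genes: 6 of histone H1, 14 of H2A, 12 of H2B, 8 of H3 and 9 of H4. Of these 49 genes, 36 lie in the Hist1 cluster on chromosome 13, 9 in Hist2 on chromosome 3, 3 in Hist3 on chromosome 11 and 1, Hist4h4, on chromosome 6. They were measured in aortic tissue on 12 one-colour microarrays, with 3 arrays in each of 4 groups. All mice were male, of the strain label 129S5/SvEvBrd, C57BL6 and SJL, and all carried the floxed allele of Socs3, a feedback inhibitor of cytokine signalling, in homozygous form (Socs3fl/fl). The labels give no age. WT mice were littermates without a Cre transgene, and smSocs3-KO mice carried Cre driven by the SM22 promoter of smooth muscle. Each genotype was sampled before challenge (pre) and at day 3 of an infusion of BAPN, which blocks the crosslinking of collagen and elastin, at 150 mg/kg/day together with the pressor hormone AngII at 1000 ng/kg/min. Whole aortic tissue was hybridised, although the deletion concerns smooth muscle, so that other cells of the wall contribute to every value.

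Histones H2A, H2B, H3 and H4 form the core around which DNA is wrapped, and H1 is the linker histone that binds the DNA between cores. Most clustered genes are replication-dependent: they are transcribed mainly in S phase, and their mRNAs usually end in a conserved stem-loop rather than in a poly(A) tail. Replacement variants lie outside the clusters, and most are made outside S phase too and carry poly(A) tails. The labels name the Low Input Quick Amp kit, which by its standard protocol primes cDNA from poly(A) tails, so the arrays may record only part of the stem-loop transcripts. How far that touched the values below was not tested.

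Values are log2 signals, that is, the log2 processed intensity of a probe minus the 75th percentile of its array, and differences are on the same log2 scale. Values of a group are given in the order of replicates 1, 2 and 3 for WT pre, 1, 3 and 4 for WT day 3, 1, 3 and 4 for KO pre, and 2, 3 and 5 for KO day 3. A gene was tested if the 3 arrays of any group all showed a probe of it well above background, and the brightest such probe stood for it. Under this filter 41 of the 49 histone genes and 22755 genes in all were tested, and a gene was called at an adjusted p under 0.05 in limma. In bulk tissue, fewer cells of a type and less RNA per cell cannot be told apart.

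The share of spots well above background lay between 55.4% and 61.2% on the 12 arrays, and no spot was saturated. All 6 WT arrays and KO pre replicate 1 were on slide 1, and the other 5 arrays of the smSocs3-KO label were on slide 2, so that genotype and slide largely cannot be told apart. Socs3 was not lower on the arrays labelled smSocs3-KO: the difference from WT was 0.49 before challenge (adjusted p = 0.99995 in limma) and 1.52 at day 3 (adjusted p = 0.208 in limma). These arrays are therefore called by their label, and no direction below is read as an effect of the deletion. WT day 3 replicate 4 stood apart from the other arrays of its group, and results that rest on it are given with and without it.

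Many histone probes lie in coding sequence that the gene copies share. The next sequences show why their signals are hard to assign to 1 gene. In a window of 42 bases near the end of the H2A reading frame, probes of 5 further H2A genes differ from that of Hist1h2ah at 2 to 5 positions, which are in capitals. The sequences are those of the array design. The probe of Hist1h2ah lies at chr13:22127035-22127094, on the minus strand of mm9.
Hist1h2ah: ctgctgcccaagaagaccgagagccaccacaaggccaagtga
Hist1h2af: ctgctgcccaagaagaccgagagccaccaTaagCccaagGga
Hist1h2ag: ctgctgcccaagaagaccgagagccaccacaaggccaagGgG
Hist1h2ak: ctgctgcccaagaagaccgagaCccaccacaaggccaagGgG
Hist1h2an: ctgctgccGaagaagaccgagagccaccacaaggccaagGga
Hist2h2aa2: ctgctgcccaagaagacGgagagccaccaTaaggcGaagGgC

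Among all member probes, 13 pairs of H2A probes, all from this set of 6, and 3 pairs of H4 probes shared at least 90% of bases over an ungapped overlap of at least 36 bases. The signals of the 6 H2A probes rose and fell together over the 12 arrays, with a lowest pairwise Pearson correlation of 0.993 across arrays. The points share arrays, slides and groups, so this correlation is a description. The 3 linked H4 probes show the same feature in a window of 40 bases, with the differences from Hist1h4d in capitals. Hist1h4d lies at chr13:23673515-23673574 on the plus strand of mm9.
Hist1h4d: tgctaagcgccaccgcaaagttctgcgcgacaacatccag
Hist1h4j: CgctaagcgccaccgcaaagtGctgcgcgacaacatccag
Hist1h4k: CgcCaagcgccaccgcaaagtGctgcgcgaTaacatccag

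A second group of probes reaches the stem-loop at the end of the mRNA. The sequence search took a stem of 6 bases, beginning with GG, and a loop of 4 bases. It found a whole stem-loop followed by only 3 to 6 further bases in 5 probes, of which 2 had no kept signal. The last 30 bases of those 5 probes are printed with the stem-loop in capitals.
Hist1h3a: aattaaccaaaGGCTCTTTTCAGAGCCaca
Hist1h3g: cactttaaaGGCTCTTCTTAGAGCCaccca
Hist1h3i: ataacaaaaGGCTCTTTTCAGAGCCccctc
Hist1h4m: caactaaaGGCCCTTTTCAGGGCCatccaa
Hist2h2bb: acccaaaaGGCTCTTTTCAGAGCCacttta

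In Hist2h2aa1 the probe instead starts close to the stem-loop and runs 38 bases past it, and in Hist1h2ae it begins within the stem-loop and runs 48 bases past it. Both therefore lie largely past the usual end of the mRNA, and 30 bases from the stem-loop on are shown with the stem-loop, or what the probe holds of it, in capitals. The Hist2h2aa1 probe lies at chr3:96049949-96050008 on the plus strand of mm9.
Hist2h2aa1: GGCTCTTTTCAGAGCCacccactgaatcag
Hist1h2ae: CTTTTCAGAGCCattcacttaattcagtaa

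The first question was how the challenge changed the histone genes when both genotype labels were averaged. Histone genes rose in part: 13 of the 41 tested genes were called higher and 1, Hist1h2be, was called lower by limma at an adjusted p under 0.05. Over all 22755 genes, 13.6% were called higher and 9.18% lower, beside 31.7% of histone genes called higher. The 13 include the 6 H2A probes shown above, which share most of their bases, so this share does not count independent genes. The median difference was 0.24 over the histone genes and -0.05 over all genes tested. By family, 8 of 12 H2A genes, 2 of 5 H1 genes, 2 of 6 H3 genes and 1 of 9 H4 genes were called higher, and no H2B gene was. The H4 gene, Hist1h4m, was kept only through KO day 3, where it was high. With the filter tightened to all 12 arrays, 11 of 34 histone genes and 15.5% of all genes were called higher.

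**Figure D1:**
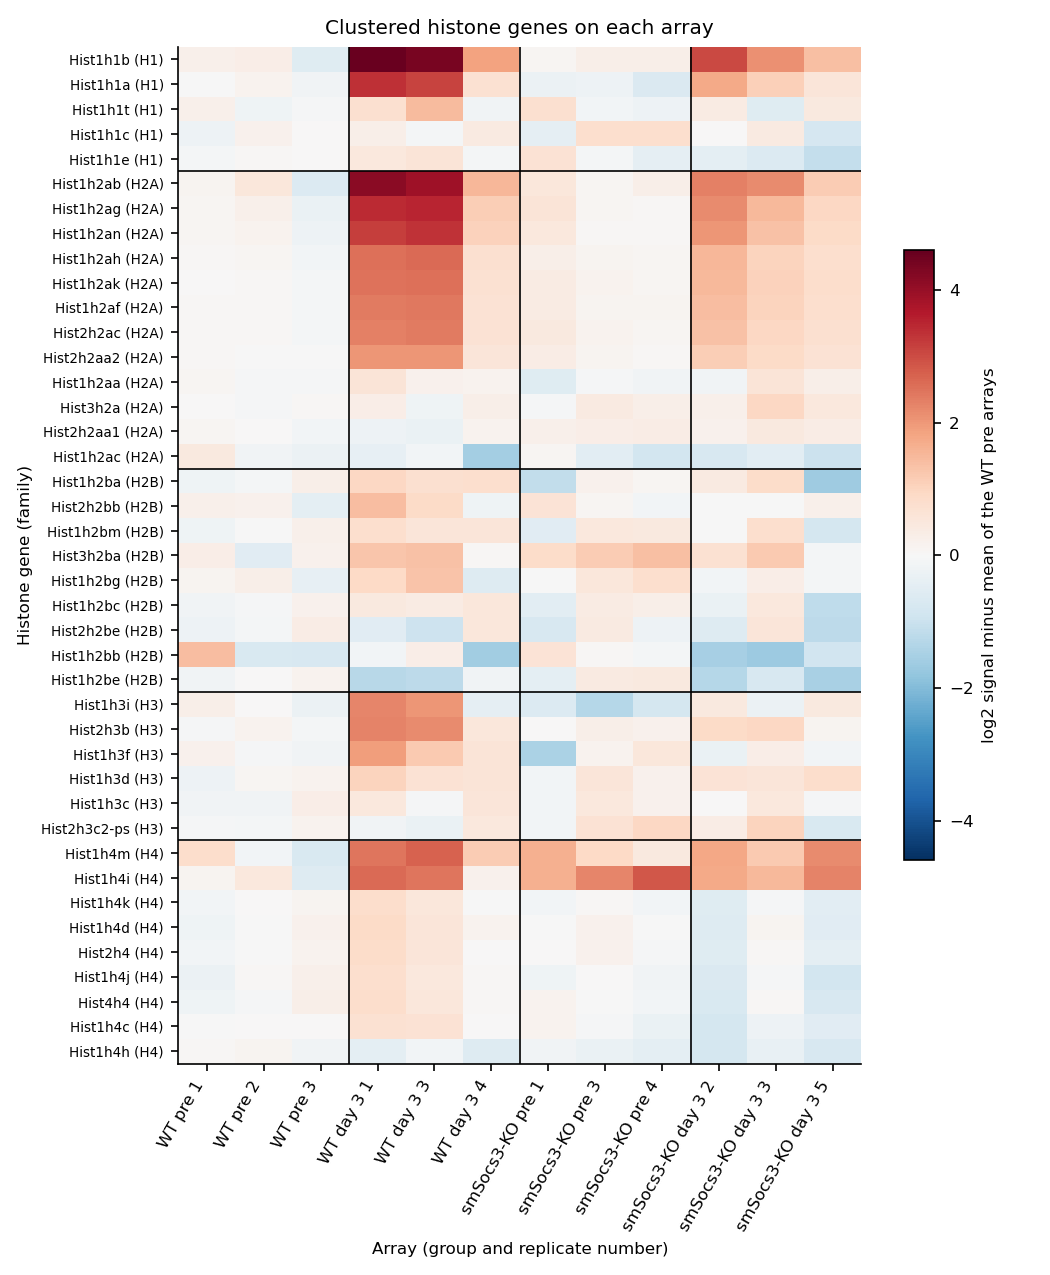
Heat map of the 41 tested histone genes (rows, grouped by family and sorted by mean challenge response) on the 12 arrays (columns), as log2 signal minus the mean of the 3 WT pre arrays. Most H2A genes and the H1 genes Hist1h1a and Hist1h1b are highest on WT day 3 replicates 1 and 3, lower on WT day 3 replicate 4 and intermediate at day 3 in the smSocs3-KO label.

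The 2 H1 genes that rose were Hist1h1b (histone H1.5) and Hist1h1a (histone H1.1). Hist1h1b read -1.11, -1.02 and -1.87 on the WT pre arrays and 3.23, 3.02 and 0.53 on WT day 3 replicates 1, 3 and 4. On arrays labelled smSocs3-KO it read -1.23, -1.07 and -1.06 before challenge and 1.71, 0.78 and 0.06 at day 3. In either label every day 3 array lay above every pre array. The mean response of Hist1h1b was 2.78 ± 0.45 (SE, limma adjusted p = 0.00604), made of 3.59 ± 0.64 in WT and 1.97 ± 0.64 in the smSocs3-KO label. Its probe lies at chr13:21871923-21871982, minus strand, mm9.

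Hist1h1a read -3.91, -3.73 and -4.07 on WT pre, -0.56, -0.79 and -3.21 on WT day 3, -4.16, -4.12 and -4.55 on KO pre, and -2.17, -2.80 and -3.34 on KO day 3. The signal was dim, but day 3 and pre arrays did not overlap in either label, and its mean response was 1.94 ± 0.41 (SE, limma adjusted p = 0.0111). After normexp background correction it was 0.70 and no longer called (limma adjusted p = 0.0579). The other 3 H1 genes, Hist1h1c, Hist1h1e and Hist1h1t, had mean responses of -0.15, -0.21 and 0.32 and were not called. Hist1h1e, the brightest H1 probe, read 3.59, 3.73 and 3.72 on WT pre, 4.18, 4.28 and 3.60 on WT day 3, 4.33, 3.59 and 3.25 on KO pre and 3.24, 3.07 and 2.59 on KO day 3.

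Among the H2A genes, Hist1h2ab had the largest mean response, 2.39 ± 0.43 (SE, limma adjusted p = 0.00735). It read 1.37, 1.77 and 0.61 on WT pre arrays and 5.39, 5.15 and 2.78 on WT day 3, and 1.79, 1.34 and 1.53 against 3.58, 3.44 and 2.42 with the smSocs3-KO label. Its probe ends inside the stem-loop sequence, at chr13:23843392-23843451 on the plus strand. The 6 near-identical H2A probes above, for Hist1h2af, Hist1h2ag, Hist1h2ah, Hist1h2ak, Hist1h2an and Hist2h2aa2, had mean responses of 1.12 to 1.99, and Hist2h2ac had 1.28. Of these, Hist1h2ag read 4.65, 4.77 and 4.24 on WT pre, 7.99, 8.06 and 5.69 on WT day 3, 5.16, 4.64 and 4.63 on KO pre, and 6.72, 6.06 and 5.49 on KO day 3, with 1.99 ± 0.39 (SE, limma adjusted p = 0.00945). Every day 3 array of a label lay above every pre array of it. The array design gives this probe a span far longer than a probe, on the other strand than the gene named Hist1h2ag in RefSeq, so which gene it reports is uncertain.

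The same order held in the rest of the set. Hist1h2an read 4.46, 4.52 and 4.11 on WT pre, 7.55, 7.69 and 5.42 on WT day 3, 4.85, 4.41 and 4.41 on KO pre, and 6.41, 5.72 and 5.24 on KO day 3, with 1.88 ± 0.37 (SE, limma adjusted p = 0.00931). Hist1h2af read 5.65, 5.68 and 5.51 on WT pre, 8.02, 8.04 and 6.28 on WT day 3, 5.99, 5.74 and 5.72 on KO pre, and 7.04, 6.63 and 6.39 on KO day 3, with 1.35 ± 0.28 (SE, limma adjusted p = 0.0107). Both had WT day 3 replicate 4 below every other WT day 3 array and above every WT pre array. Hist1h2ak read 5.43, 5.45 and 5.33 on WT pre, 7.91, 7.94 and 6.11 on WT day 3, 5.78, 5.55 and 5.48 on KO pre, and 6.90, 6.45 and 6.20 on KO day 3. Hist2h2ac, from the Hist2 cluster, read 5.51, 5.51 and 5.38 on WT pre, 7.78, 7.84 and 6.13 on WT day 3, 5.93, 5.61 and 5.54 on KO pre, and 6.81, 6.43 and 6.20 on KO day 3, with 1.28 ± 0.27 (SE, limma adjusted p = 0.0113).

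The brightest of these, Hist1h2ah, read 5.73, 5.78 and 5.57 on WT pre, 8.22, 8.31 and 6.44 on WT day 3, 5.97, 5.83 and 5.78 on KO pre, and 7.24, 6.73 and 6.45 on KO day 3, with a mean response of 1.46 ± 0.30 (SE, limma adjusted p = 0.0102). When every kept probe was tested on its own, a probe of Hist1h2ak outside the near-identical set had a mean response of 2.05 (limma adjusted p = 0.0076), beside 1.41 for the one within it (limma adjusted p = 0.011). Since these probes share most of their bases, the 6 values cannot be read as 6 independent genes. The H2A genes that were not called were Hist1h2aa, Hist1h2ac, Hist2h2aa1 and Hist3h2a, with mean responses of 0.41, -0.50, -0.04 and 0.23. Hist1h2ac was dim and read -1.55, -2.18 and -2.29 on WT pre, -2.37, -2.13 and -3.59 on WT day 3, -1.93, -2.50 and -2.86 on KO pre, and -2.75, -2.50 and -2.99 on KO day 3, with overlapping groups in either label.

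**Figure D2:**
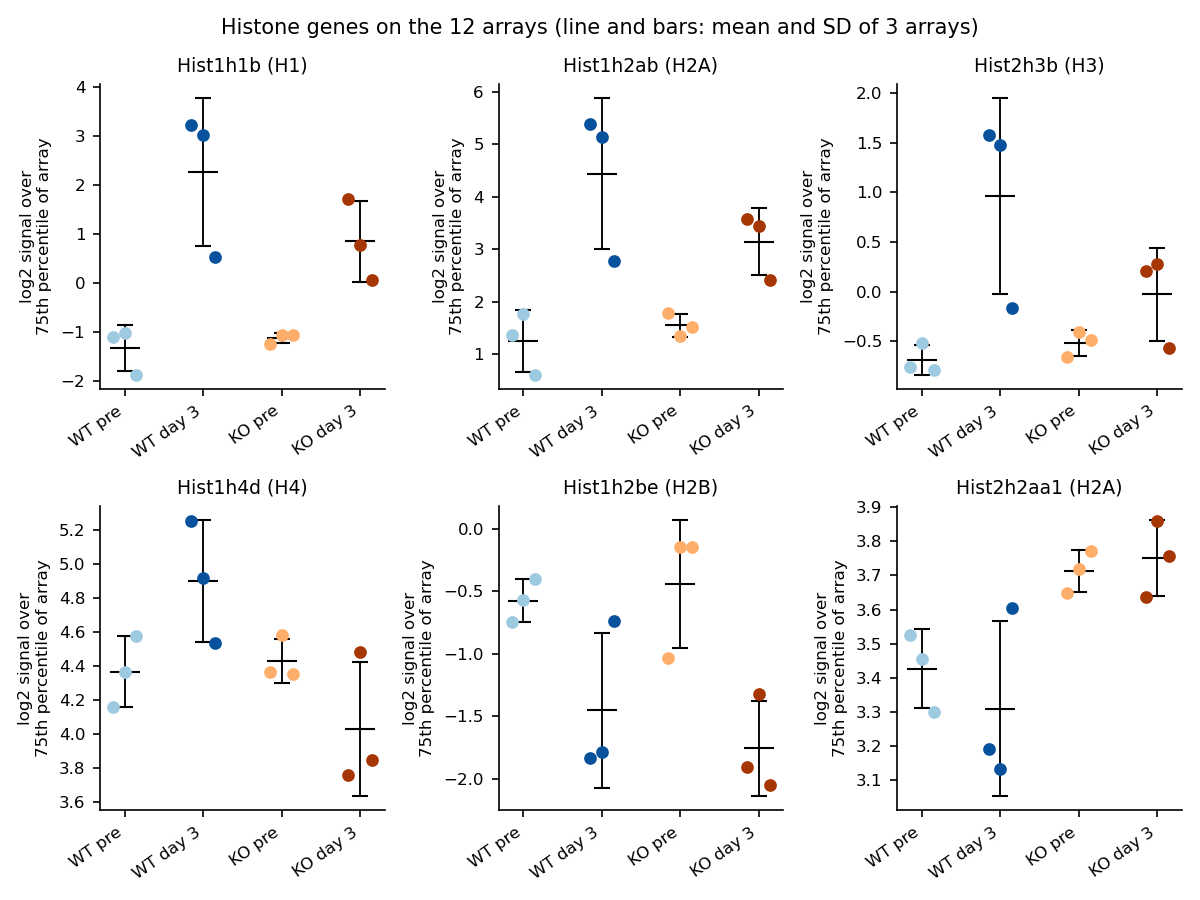
Log2 signal over the 75th percentile of the array for 6 histone genes, with 1 dot per array and a line and bars for the mean and SD of the 3 arrays of a group. Hist1h1b, Hist1h2ab and Hist2h3b rise at day 3 with a wide spread in WT, while Hist1h2be is lower at day 3 except on WT replicate 4 and the Hist2h2aa1 values of pre and day 3 overlap. Hist1h4d is above its pre values on 2 of 3 WT day 3 arrays.

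The probes named Hist2h2aa1 and Hist2h2aa2 lie 52 bases apart on the same strand of chromosome 3 in mm9, the former past the stem-loop and the latter ending on a stop codon. RefSeq places these genes on opposite strands, and the array design lists the transcripts of both for the Hist2h2aa2 probe, so the probes may read 1 gene copy and are not read here as separate genes. Hist2h2aa2 read 5.64, 5.59 and 5.57 on WT pre, 7.63, 7.61 and 6.16 on WT day 3, 5.94, 5.72 and 5.66 on KO pre and 6.72, 6.47 and 6.27 on KO day 3. Hist2h2aa1 read 3.53, 3.46 and 3.30 on WT pre, 3.19, 3.13 and 3.60 on WT day 3, 3.65, 3.72 and 3.77 on KO pre and 3.64, 3.86 and 3.76 on KO day 3. The mean response was 1.12 ± 0.24 at the probe before the end of the coding sequence (limma adjusted p = 0.0111) and -0.04 ± 0.11 past the stem-loop (limma adjusted p = 0.815). The difference between the probes was not tested.

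In the mean challenge response the H3 genes Hist2h3b and Hist1h3d rose. Hist2h3b read -0.76, -0.51 and -0.79 on WT pre, 1.58, 1.48 and -0.17 on WT day 3, -0.66, -0.40 and -0.49 on KO pre, and 0.21, 0.28 and -0.56 on KO day 3. Its mean response was 1.07 ± 0.29 (SE, limma adjusted p = 0.0249), and with the smSocs3-KO label the day 3 values overlapped the pre values. Hist1h3d, the brightest H3 gene, read 4.05, 4.37 and 4.47 on WT pre, 5.31, 4.96 and 4.89 on WT day 3, 4.17, 4.85 and 4.49 on KO pre and 4.93, 4.84 and 5.09 on KO day 3, with a mean response of 0.61 ± 0.15 (SE, limma adjusted p = 0.0172). The H4 gene Hist1h4m read -5.09, -6.05 and -6.60 on WT pre, -3.45, -3.22 and -4.75 on WT day 3, -4.28, -4.98 and -5.48 on KO pre, and -4.15, -4.73 and -3.75 on KO day 3. Its probe was well above background on 2 WT day 3 and 3 KO day 3 arrays and on no pre array, so that WT day 3 was at least 1.45-fold above WT pre. It passed the filter only through the day 3 arrays, and its call (limma adjusted p = 0.0416 in WT) was lost under 15 of 26 alternatives, with a WT difference of 0.25 after normexp background correction (limma adjusted p = 0.549), so no rise is read from it.

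Of 9 tested H2B genes, only Hist1h2be was called in the mean challenge response, and it was called lower. It read -0.75, -0.57 and -0.40 on WT pre, -1.84, -1.79 and -0.74 on WT day 3, -1.03, -0.15 and -0.14 on KO pre and -1.90, -1.32 and -2.05 on KO day 3, with a mean response of -1.10 ± 0.24 (SE, limma adjusted p = 0.0124). On WT day 3 replicate 4 its value lay within the WT pre range. Hist1h2bb, near background, read -2.80, -4.93 and -4.96 on WT pre, -4.36, -3.93 and -5.83 on WT day 3, -3.60, -4.16 and -4.30 on KO pre and -5.75, -5.91 and -5.11 on KO day 3, with a mean response of -1.02 ± 0.43 that was not called (limma adjusted p = 0.103). Its probe was well above background on all 3 KO pre arrays, 1 WT pre array and no day 3 array, so that it was kept only through KO pre and no fall is read from it. The brightest H2B gene, Hist1h2bc, read 4.51, 4.62 and 4.87 on WT pre, 5.13, 5.03 and 5.17 on WT day 3, 4.18, 5.04 and 4.92 on KO pre and 4.38, 5.14 and 3.48 on KO day 3, with a mean response of 0.03.

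The next question was whether each genotype label responded on its own. In WT, limma called 12 of 41 histone genes higher and none lower at an adjusted p under 0.05, compared with 3.58% of all genes called higher. The median difference was 0.63 over the histone genes and -0.02 over all genes. The 12 include Hist1h4m, from which no rise is read. With the filter tightened to all 12 arrays, 11 of 34 histone genes and 998 of 19534 genes in all were called higher in WT. On arrays labelled smSocs3-KO no histone gene was called (limma), with 11 of 41 at an unadjusted p under 0.05 compared with 23.8% of all genes, a smallest adjusted p of 0.0662 and a median difference of -0.03 (0.18 after scaling to the array median, where the median of all genes was 0.15), compared with -0.06 over all genes and 1.71% of all genes called higher. At the study's own threshold of an unadjusted p under 0.01 and a fold over 4, 5 histone genes rose in WT (Hist1h1a, Hist1h1b, Hist1h2ab, Hist1h2ag and Hist1h2an), compared with 1.11% of all genes, and none with the smSocs3-KO label. Hist1h4m is left out of the 5 because its fold is only bounded.

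The count in WT rested on which arrays were used. Without WT day 3 replicate 4, limma called 19 histone genes higher in WT and 1 lower, compared with 9.96% and 5.98% of all genes. In the smSocs3-KO label 11 were then called higher and 1 lower, compared with 5.56% and 2.87% of all genes. The smSocs3-KO differences were the same with and without that WT array, with a median of -0.03. Each gene has 1 variance shared by the 4 groups, so these calls came with a smaller variance and not with a larger response. With only the smSocs3-KO arrays in the fit, no histone gene was called, while 323 of all 22755 genes were called higher. WT day 3 replicate 4 read lowest of the 3 WT day 3 arrays in 31 of 41 histone genes. It did so in all 13 genes called higher in the mean challenge response, and in those 13 it lay above every WT pre array. The 13 were called with that array in the fit, so its place above WT pre is partly selected for and shows no separate rise. They include Hist1h4m, from which no rise is read. When WT day 3 replicate 1 or 3, any 1 of the WT pre arrays or KO pre replicate 4 was left out instead, no histone gene was called in WT. Almost no gene at all was called in those fits: at most 2 of all 22755 genes were called higher in WT and at most 2 lower. They therefore cannot show whether the histone rise itself depends on the array left out. With slide as a block 14 histone genes were called higher in WT, compared with 7.08% of all genes. In the mean challenge response the count was 13, compared with 10.9%. All WT arrays were on slide 1, so the block gave the same counts as leaving out KO pre replicate 1. It therefore could not adjust the WT response for slide. Among the arrays of slide 2 alone, which also lack KO pre replicate 1, the smSocs3-KO median was -0.19. The mean challenge response gave 11 to 15 genes called higher whichever single array was left out.

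Overlap of the arrays was counted as well. In WT, 18 of 41 histone genes (43.9%) had every day 3 array above every pre array, compared with 20.7% of all genes. With the smSocs3-KO label the count was 11 of 41 (26.8%), compared with 14.1% of all genes. Those 11 included 10 of the 13 genes called higher in the mean challenge response. The mean response is partly made of these same smSocs3-KO arrays, so this is partly built in and is not read as support.

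**Figure D3:**
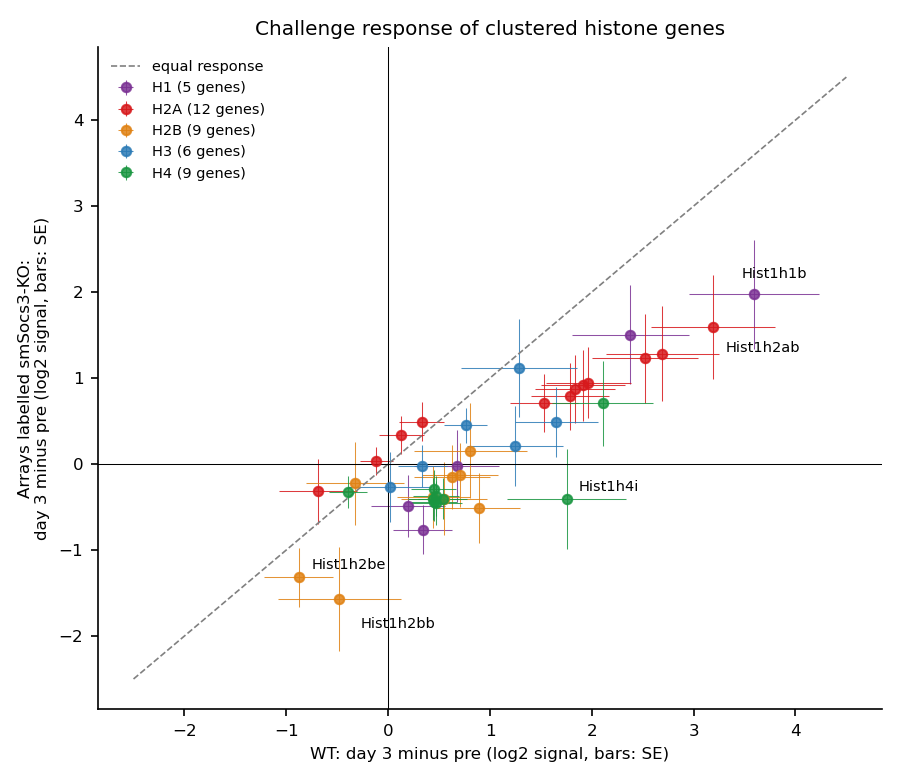
Log2 difference between day 3 and pre in WT (horizontal axis) and on arrays labelled smSocs3-KO (vertical axis) for the 41 tested histone genes, coloured by family, with bars for the standard error. The 8 called H2A genes lie to the upper right and below the line of equal response, and most H4 genes lie just above 0 in WT and below 0 in the smSocs3-KO label.

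Differences between the genotype labels were then examined. Before challenge no histone gene was called by limma, with 2 at an unadjusted p under 0.05 compared with 4.4% of all genes, a median of 0.17 over the histone genes and 0.0264% of all genes called. The largest positive difference was that of Hist1h4i, 2.25 ± 0.59 (limma adjusted p = 0.583), with -1.78, -1.44 and -2.51 on WT pre against -0.27, 0.33 and 0.96 on KO pre. At day 3 no histone gene was called either, with 11 at an unadjusted p under 0.05 compared with 16.2% of all genes, a smallest adjusted p of 0.07, a median of -0.77 over the histone genes, -0.08 over all genes and 1.11% of all genes called. Without WT day 3 replicate 4, 16 of 41 histone genes were called lower in the smSocs3-KO label at day 3, compared with 1.16% of all genes, and the median was -1.06. When WT day 3 replicate 1 or 3 was left out instead, no histone gene was called and the medians were -0.55 and -0.50. In those fits 21 and 7 of all 22755 genes were called lower. With all arrays, 7 of 41 histone genes (17.1%) had every KO day 3 array below every WT day 3 array, compared with 12.7% of all genes. With slide as a block the medians were 0.03 before challenge and -0.68 at day 3, and no histone gene was called (limma). No slide held both labels at day 3, and the block was estimated only from KO pre replicate 1 against the other KO pre arrays.

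The genes furthest apart at day 3 were Hist1h1b, Hist1h2ab and Hist1h3f, with smSocs3-KO minus WT differences of -1.41 ± 0.64, -1.29 ± 0.61 and -1.29 ± 0.47 (limma adjusted p = 0.308, 0.327 and 0.221). Without WT day 3 replicate 4 they were -2.28, -2.12 and -1.61 (limma adjusted p = 0.0268, 0.0279 and 0.126), and Hist1h1a stood at -2.10 (limma adjusted p = 0.014). With WT day 3 replicate 1 or 3 left out instead, no histone gene was called at day 3. Hist1h3f, an H3 gene, read -3.40, -3.64 and -3.74 on WT pre, -1.68, -2.38 and -2.99 on WT day 3, -5.04, -3.44 and -3.06 on KO pre, and -3.89, -3.30 and -3.73 on KO day 3. Every KO day 3 array of Hist1h3f lay below every WT day 3 array. On the other side were Hist2h2aa1, Hist3h2a and the pseudogene Hist2h3c2-ps, with 0.44 ± 0.16, 0.43 ± 0.22 and 0.21 ± 0.41. Hist3h2a, an H2A gene, read 1.59, 1.52 and 1.65 on WT pre, 1.90, 1.40 and 1.85 on WT day 3, 1.53, 2.02 and 1.87 on KO pre, and 1.82, 2.55 and 2.06 on KO day 3, and Hist2h3c2-ps read 0.07, 0.07 and 0.29 on WT pre, -0.02, -0.15 and 0.64 on WT day 3, 0.02, 0.81 and 1.08 on KO pre, and 0.48, 1.17 and -0.54 on KO day 3. The labels overlapped at day 3 in Hist3h2a and Hist2h3c2-ps and did not in Hist2h2aa1.

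Hist1h4i shows how far probes of 1 gene can part. Its 3 probes had pre differences between the labels of 2.25, 0.87 and 0.36, and mean challenge responses of 0.67, 0.43 and -0.36. On the probe that stands for it, Hist1h4i read 0.69, 0.54 and -1.71 on WT day 3 and -0.17, -0.41 and 0.38 on KO day 3. Other large differences before challenge lay near background. Hist3h2ba, an H2B gene, read -4.06, -4.89 and -4.17 on WT pre, -3.11, -3.03 and -4.32 on WT day 3, -3.54, -3.22 and -2.98 on KO pre, and -3.66, -3.15 and -4.46 on KO day 3, and since its probe was not well above background on any WT pre array, KO pre, the group through which it was kept, was at least 1.92-fold higher (limma adjusted p = 0.99995). Hist1h3i, an H3 gene, read -3.68, -3.93 and -4.19 on WT pre, -1.70, -1.92 and -4.33 on WT day 3, -4.57, -5.25 and -4.74 on KO pre, and -3.49, -4.22 and -3.50 on KO day 3, with WT pre at least 1.48-fold above KO pre (limma adjusted p = 0.99995). Neither passed the test.

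Most H4 genes had a mean challenge response near 0, with values of opposite sign in the labels. Leaving aside Hist1h4i, Hist1h4m and Hist1h4h, a choice made after the values were seen, the 6 remaining H4 genes had WT differences of 0.44 to 0.54 and smSocs3-KO differences of -0.45 to -0.29, and a mean response between 0.01 and 0.08. None of these was called. The signs in WT and in the smSocs3-KO label were the same under the 5 other scalings tried, while the sign of the mean response was not: its median over the 6 was -0.13 after quantile normalization and 0.23 after scaling to the array median. At day 3 their difference between the labels ran from -0.97 to -0.79, with no call by limma (smallest adjusted p = 0.07). In 5 of the 6 every smSocs3-KO array lay below every WT array, compared with 12.7% of all genes. Over all 9 tested H4 genes the count was also 5. Without WT day 3 replicate 4, limma called 4 of the 6 lower, compared with 1.16% of all genes. They were Hist1h4c at -1.20, Hist1h4j at -1.14, Hist1h4k at -1.04 and Hist2h4 at -1.02 (limma adjusted p = 0.021, 0.0452, 0.0281 and 0.0378). No H4 gene was called at day 3 when WT day 3 replicate 1 or 3 was left out instead. Hist1h4k, the brightest H4 gene, read 5.40, 5.54 and 5.65 on WT pre, 6.35, 6.05 and 5.53 on WT day 3, 5.41, 5.58 and 5.39 on KO pre and 4.96, 5.48 and 5.06 on KO day 3. WT day 3 replicate 4 lay inside the WT pre range of Hist1h4k. The linked probes shown above belong to 3 of these genes, for Hist1h4k by another probe than the one that stands for it. Counts over the 6 are therefore not counts of independent genes.

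The interaction of genotype label and challenge was called for none of the 41 histone genes and for 0% of all genes, and the smallest adjusted p among the histone genes was 0.897 (limma). An unadjusted p under 0.05 was seen for 9 histone genes (of 41) and for 5.33% of all genes. The median interaction was -0.85 over the histone genes and -0.06 over all genes.

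The median response differed between positions of the probe along the mRNA, as a description chosen after the values were seen. Of the 55 probes, 8 ended on a stop codon with an open reading frame before it, 6 reached the stem-loop within 10 bases of the probe end, 2 lay mostly past it and 39 had neither feature. In WT the median difference was 1.81 over the 8 probes of the first kind, which include 6 of H2A. It was 1.70 over the 4 kept probes of the second, which ran from 0.70 to 3.19. That 1.70 lies between the values of 2 dim probes, Hist1h3i at 1.29 and Hist1h4m at 2.11. Hist1h4m was well above background on no WT pre array, so its difference is only bounded. The median of the second kind is therefore not read as a measured response. The median was 0.47 over the 33 kept probes with neither, but these ran from -0.88 to 3.59 and include Hist1h1b, which had the largest rise. The difference was -0.12 at the single kept probe past the stem-loop. Probe position and family cannot be told apart here.

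**Figure D4:**
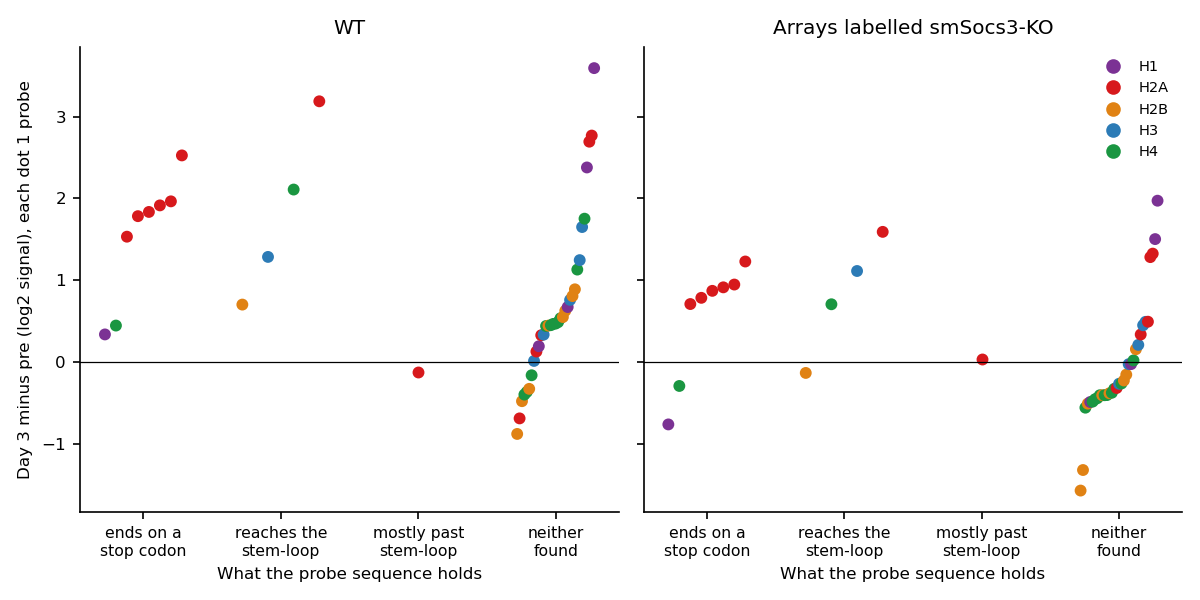
Day 3 minus pre in log2 signal for each kept probe, grouped by what its sequence holds and coloured by family, in WT (left) and in the smSocs3-KO label (right). H2A probes dominate the group that ends on a stop codon, where WT values run from 0.34 to 2.53, and the single kept probe past the stem-loop is near 0 in either label.

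Motifs known from histone promoters were counted in the RefSeq promoter table (build GRCm38.p6), which holds 250 bases before and 50 after each start. All 49 genes had a current symbol there and 43 had a promoter. The motif CCAAT was found on either strand in 37 of 43 histone promoters (86.0%) and in 37.9% of all promoters, TATAAA in 26 (60.5%) and 14.2%, and the octamer ATTTGCAT in 12 (27.9%) and 1.75%. CCAAT was in every H1, H2A, H2B and H3 promoter but in only 2 of 8 H4 promoters (25%), of which that of Hist1h4d is 1. The octamer was found in 7 of 14 H2A and 5 of 9 H2B promoters and in none of the 6 H1, 6 H3 or 8 H4 promoters. Some windows overlap, such as those of Hist1h2aa and Hist1h2ba and those of Hist1h2ae and Hist1h2bg, which each hold the octamer. The same site may therefore be counted in both families. A match says only that these letters occur in the window.

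Upstream sequence is printed for 4 genes that the results turn on: Hist1h2ab and Hist1h1b, with the largest rises, Hist1h2be, which fell, and Hist1h4d of the H4 set. Each run holds the 130 bases before the start, with motifs in capitals on either strand. Their positions in GRCm38.p6 are chr13:23750958-23751087 on the plus strand, chr13:21780626-21780755 and chr13:23621095-23621224 on the minus strand, and chr13:23581438-23581567 on the plus strand.
Hist1h2ab: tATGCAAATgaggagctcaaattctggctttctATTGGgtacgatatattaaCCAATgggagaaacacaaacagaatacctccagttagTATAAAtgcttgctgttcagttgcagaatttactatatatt
Hist1h1b: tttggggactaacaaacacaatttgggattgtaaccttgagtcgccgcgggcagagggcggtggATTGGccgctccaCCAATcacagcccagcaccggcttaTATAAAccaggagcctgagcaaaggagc
Hist1h2be: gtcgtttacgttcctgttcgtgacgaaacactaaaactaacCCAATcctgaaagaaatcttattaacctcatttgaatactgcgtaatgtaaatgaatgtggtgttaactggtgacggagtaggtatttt
Hist1h4d: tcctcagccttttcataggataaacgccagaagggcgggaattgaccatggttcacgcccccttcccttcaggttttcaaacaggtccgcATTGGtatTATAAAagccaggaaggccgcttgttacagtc

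Genes that work with histones were drawn from lists and read in the same fit. Of the 20 genes of S phase and DNA replication, 15 were called higher in the mean challenge response by limma and none lower, with a median of 1.37. All 13 tested mitosis genes were called higher, with a median of 3.13. Of 14 tested genes of histone mRNA synthesis and processing, 7 were called higher with a median of 0.51, among them Slbp, which encodes the protein that binds the stem-loop, at 0.86 (adjusted p = 0.0237 in limma) and Ccne1, cyclin E, at 3.13 (adjusted p = 0.00526 in limma). Of 16 genes of histone chaperones and deposition, 7 were called higher with a median of 0.19, with Asf1b, an H3-H4 chaperone, at 3.36 (adjusted p = 0.00441 in limma). No gene of these lists was called lower, and over all genes 13.6% were called higher and 9.18% lower. In WT alone the counts called higher were 8 for S phase, 13 for mitosis, 2 for mRNA synthesis and processing and 3 for chaperones, compared with 3.58% of all genes. In the smSocs3-KO label they were 0, 1, 0 and 1, compared with 1.71% of all genes.

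The variants differ among themselves: H2afx mRNA is known to end in either a stem-loop or a poly(A) tail, and Cenpa is made mainly in G2. Of 11 variant genes, 4 were called higher in the mean challenge response, compared with 13.6% of all genes, and the median was 0.51. The 4 were H2afx at 0.97, H2afz at 0.97, H2afj at 1.12 and Cenpa, the centromere variant of H3, at 2.56. The 3 testis-type clustered genes Hist1h1t, Hist1h2aa and Hist1h2ba had mean responses of 0.32, 0.41 and 0.48 and were not called. Beside the histone results, leukocyte markers were called higher in 5 of 8 tested genes and lower in none, smooth muscle markers lower in 1 of 5 (Myh11), fibroblast markers higher in 2 of 5 and lymphocyte markers lower in 2 of 6. By the same test 13.6% of all genes were called higher and 9.18% lower. Ddx4 of testis germ cells and Myh1, Myh2 and Myh4 of striated muscle were well above background on no array. The log2 of the summed leukocyte signal lay between 7.07 and 8.36 on the arrays before challenge and between 7.28 and 8.05 at day 3. Itgam was the largest term of that sum and was not called (limma adjusted p = 0.413), while Ptprc, Cd68, Csf1r, Emr1 and Ly6g rose, so the sum does not show their rise. Whether a change of cell make-up bore on the histone values was not tested.

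**Figure D5:**
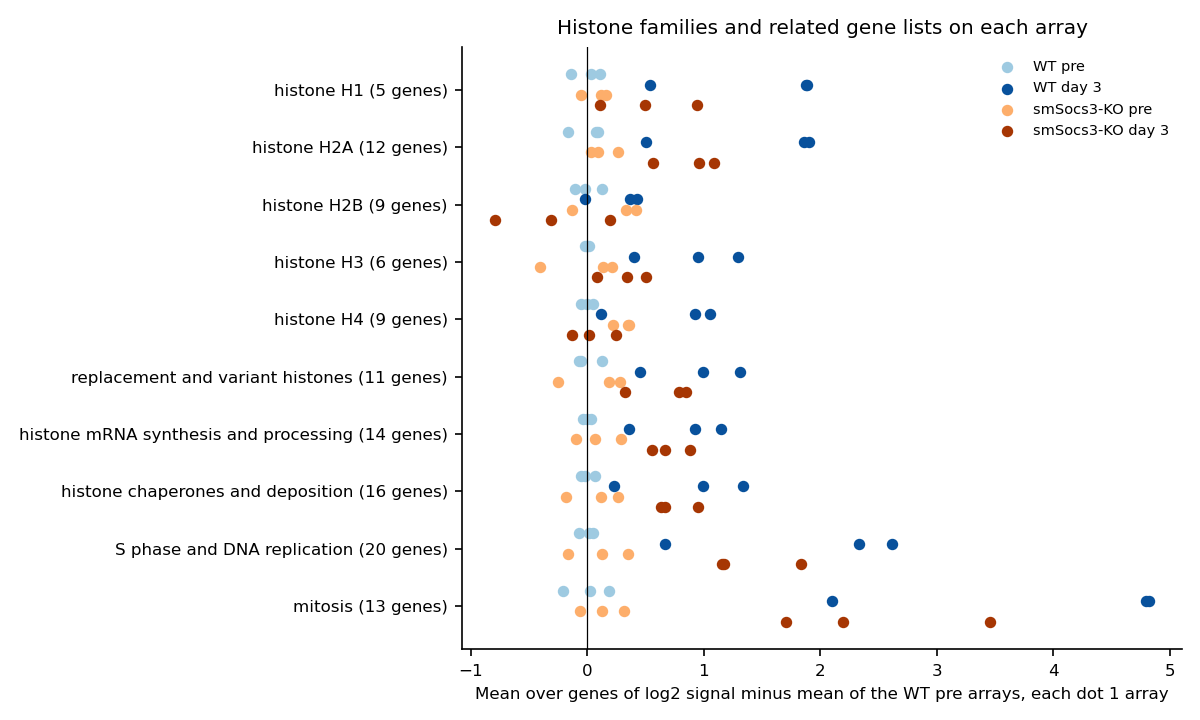
Mean over genes of log2 signal minus the mean of the 3 WT pre arrays, for the 5 histone families and 5 related lists (rows), with 1 dot per array coloured by group. S phase and mitosis lists show WT day 3 replicate 4 well below replicates 1 and 3, at 0.67 and 2.10, and the H2A family shows it at 0.51 beside 1.91 and 1.86.

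No probe was kept for 8 histone genes: Hist1h1d, Hist1h2ae, Hist1h2bp, Hist1h2bq, Hist1h3a, Hist1h3g, Hist2h2ab and Hist3h2bb-ps. Hist1h3a was well above background on 2 of 3 WT day 3 arrays, 2 of 3 KO day 3 arrays and no pre array, and WT day 3 was at least 1.31-fold above WT pre. Hist1h3g was well above background on 2 of 3 WT day 3 arrays and on no pre array, with at least 2.59-fold. Hist1h1d and Hist3h2bb-ps were well above background on none of the 12 arrays. Hist1h2ae, whose probe runs past the stem-loop, was so on 1 array.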

How the data were processed

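Aortic RNA was hybridised by the authors to 12 one-colour arrays. The deposited scanner files hold intensity values on a linear scale, background subtracted by Feature Extraction (spot analysis version 10.7.1.1 in the file headers, 9.5.1.1 in the submitters' notes). A second deposited source, the authors' quantile-normalized intensity table, served only as an alternative (lowest Spearman correlation with the matching scanner file 0.99997). Flag columns (other) marked spots well above background, which means 13 times the background SD.

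From these, log2 signal minus the 75th percentile of the array was taken, outlier and control spots left out and spots of a probe averaged. This kept 32275 of 55681 probes. Each of 22755 genes was fitted as 4 group means (limma 3.58.1, R 4.3.3), with Benjamini-Hochberg adjustment over all of them. The procedure was tested on simulated data. A probe was kept if all its spots were well above background throughout a group and it had a value on each array. The 3 arrays per group limit the precision, and the p-values measure only the spread between these arrays, which may be technical, since the labels do not say that each is a separate animal.

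Groups and replicate numbers came from the titles. The genes described array by array were those called, the 3 largest rises and falls in each pairwise comparison and the brightest of each family. The members and lists were chosen with earlier results of these data known. Probe classes by position and similarity, and the promoters shown, were chosen after values were seen. Proteins of the members were not analysed here. Alternatives covered background correction, normalization, filter, probe choice, array weights, slide, replicate number and leaving out each array.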

Additional observations from a re-analysis of the deposited data

Results flagged for a closer look

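For Hist1h4c and Hist2h4, both H4 genes, every WT day 3 array lay above the mean of the WT pre arrays and every smSocs3-KO day 3 array lay below the mean of the KO pre arrays. WT day 3 replicate 4 was within the range of the WT pre arrays in both, and KO day 3 replicate 3 within that of the KO pre arrays. Some margins were very small: Hist1h4c read -0.3456 on WT day 3 replicate 4 beside a WT pre mean of -0.3466. Hist2h4 read 5.307 on KO day 3 replicate 3 beside a KO pre mean of 5.315. The interaction was -0.89 for Hist1h4c and -0.85 for Hist2h4, and neither passed the limma interaction test (adjusted p = 0.897 and 0.915). A second, dim probe of Hist2h4 had a WT difference of -0.37 and an interaction of 0.39, both of the opposite sign.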

How the results depend on the processing

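The count in the mean challenge response, 14 genes called, stayed within 1.5 times of that under all 25 alternatives, with 12 to 16 when 1 array was left out. Scaling to the array median moved the median of all genes from -0.05 to 0.16 there, and Hist1h2be was no longer called. With the filter tightened to all 12 arrays, 11 of 34 genes were called higher and 1 lower. The count in WT, 12, was less stable. It was 4 after quantile normalization and with the deposited table, 0 without a filter, 0 with only the groups compared, 0 with slide 1 only and 27 with array weights, and 0 to 20 when 1 array was left out. Over all genes, too, 0 were called in WT with only the groups compared and with slide 1 only. Without a filter 5 of 34794 genes were called higher and 5 lower. With array weights 4773 of 22755 genes were called higher and 3645 lower. On arrays labelled smSocs3-KO the count of 0 became 1 after normexp, a gene called lower, and 11 with array weights, and 0 to 12 when 1 array was left out. Before challenge it became 11 with array weights, and at day 3 it became 3 with array weights and 0 to 16 when 1 array was left out. Among all 22755 genes, array weights called 1978 higher and 1612 lower in the smSocs3-KO label. They called 2937 higher and 4710 lower before challenge, and 301 and 135 at day 3. The interaction count was 0 in all 25. No gene's called difference changed sign. The causes were not tested.

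With the replicate number as a block, 0 histone genes were called in WT and 12 in the mean challenge response. Of all 22755 genes, 0 were then called in WT, and 590 were called higher and 303 lower in the mean challenge response. The numbers did not pair the arrays: over 11 pairs with the same number the correlation of deviations ran from -0.40 to 0.46. The number of arrays limits the precision, and dim probes are measured only as bounds.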
